A study of Mus musculus with 6 samples.

Results

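The 10 genes described here act in cell cycle arrest, the p53 pathway and senescence: the CDK inhibitors Cdkn1a, Cdkn1b, Cdkn2a, Cdkn2b, Cdkn2c and Cdkn2d, the tumor suppressor genes Trp53 and Rb1, the p53 antagonist Mdm2, and the stress cytokine Gdf15. They were chosen by gene name, with earlier results of these data known. All 10 were found among the 55357 genes of the table and among the 15280 genes that were tested. RNA was sequenced from astrocytes grown from the cortex of C57BL/6 mouse embryos at embryonic day 18. In 3 cultures the cells had been transfected with a plasmid in which the CMV promoter drives FLAG-tagged BRAF K499E, a gain-of-function BRAF variant found in RASopathies (BRAF KE; group KE), and 3 cultures received no plasmid (group NT, naive genotype). RNA was collected at 48 hours. The paper describes this construct for astrocytes fixed for immunostaining, which also received a plasmid for the fluorescent protein GFP. Whether the RNA cultures received GFP is not stated there. The CMV promoter is active in many cell types and the share of cells that took up the plasmid is not given in the sources used here. Because no culture with an empty plasmid is among the samples, BRAF KE and plasmid delivery cannot be told apart in any comparison below.

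Cells pass from G1 into S phase when cyclin-dependent kinases (CDKs) phosphorylate the retinoblastoma protein RB, which then releases E2F factors that transcribe genes of DNA replication. INK4 proteins (p15, p16, p18 and p19) bind CDK4 and CDK6, and the Cip/Kip proteins p21 and p27 bind cyclin-CDK complexes more broadly. The transcription factor p53 responds to DNA damage, oncogene activity and other stress, and transcribes Cdkn1a as well as Mdm2, whose product marks p53 for destruction. Strong RAS or RAF signaling in primary cells is known to engage these brakes and to produce senescence, a lasting arrest with a secretory phenotype.

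The values are normalized counts, which are gene counts divided by a size factor per culture, so they are comparable between cultures and not corrected for gene length. The approximate depth lay between 24500000 reads in KE replicate 2 and 34100000 in KE replicate 1. Braf, the transfected gene, was at 34933 to 40978 in KE and 811 to 946 in NT. KE and NT were compared by limma on log2(normalized count + 1) over all tested genes, and a gene was called at an adjusted p-value under 0.05. By this rule 51.3% of all tested genes were called, 25.3% as higher and 26% as lower in KE, and 59.9% had no overlap between the values of the groups. Of 10 astrocyte markers, 7 were higher in KE, 1 was lower and 2 were not called, and S100b was near the lower limit of 10 for testing, at 11.8 to 31.5 over the 6 cultures. All 14 microglia and macrophage markers were lower in KE, and their summed level was 5658 to 7877 in KE against 46414 to 53919 in NT. All 7 tested oligodendrocyte lineage markers were also lower, with sums of 27105 to 31876 in KE and 35920 to 36217 in NT. Of the neuronal markers 6 were tested, with 1 higher and 1 lower, and of the vascular and fibroblast markers 7 were tested, with 2 higher and 3 lower. In such mixed cultures, fewer cells of a type and less RNA per cell cannot be told apart, and the part of these other cells in the results below was not tested.

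Relative to the NT cultures, the KE cultures had more Gdf15, Mdm2, Cdkn2b and Cdkn1a RNA and less Cdkn2c, Cdkn2a and Cdkn2d RNA. Thus 4 of the 10 genes were called higher and 3 lower, while Trp53, Rb1 and Cdkn1b were not called. Under the alternative settings 2 or 3 were called lower, because the Cdkn2a call did not always hold. The share called, 7 of 10, stands beside a background of 51.3%, and the 9 of 10 genes without overlap beside one of 59.9%, so the number of calls by itself does not set these genes apart. Their median log2FC was 0.13, and that of all tested genes was 0.0018.

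**Figure D1:**
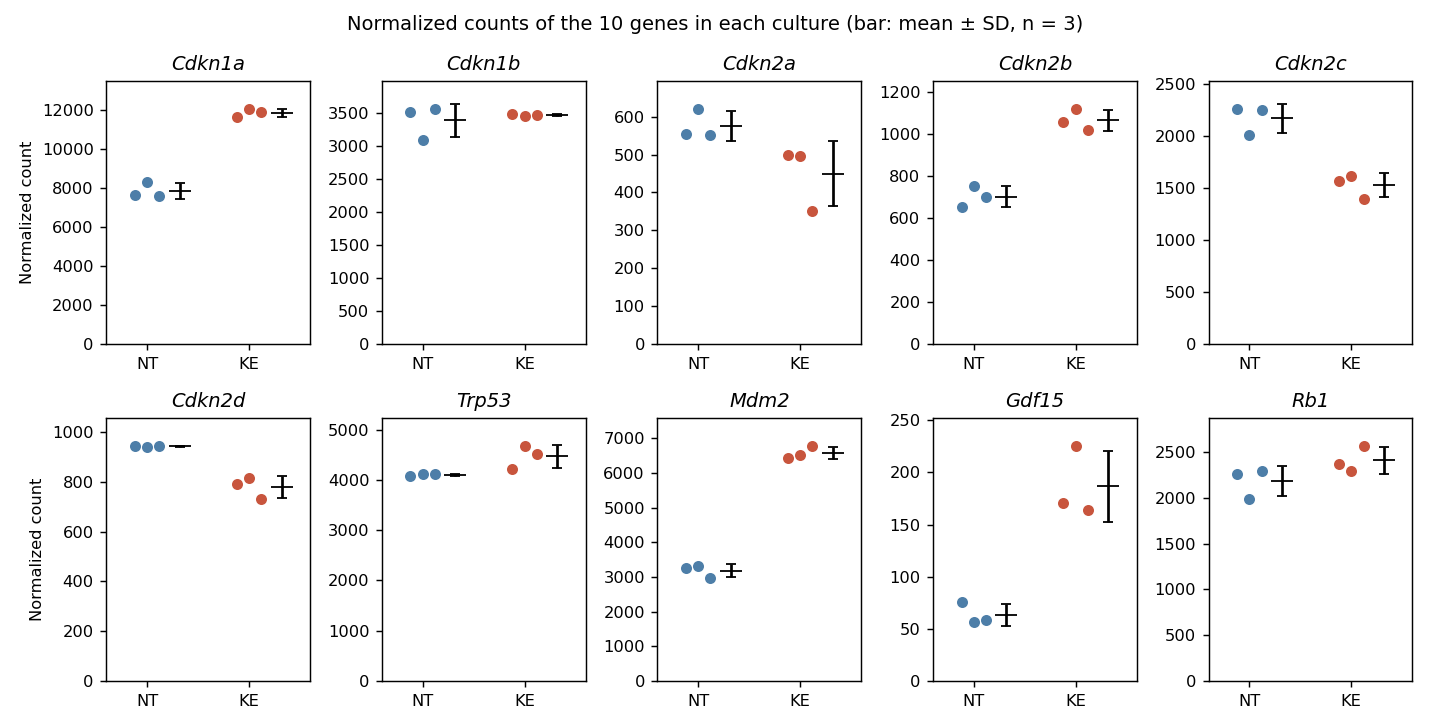
Normalized count (y axis, from 0) of each of the 10 genes in the 3 NT (blue) and 3 KE (red) cultures, with the mean and SD at the right of each group. Mdm2, Cdkn1a, Cdkn2b and Gdf15 sit higher in every KE culture, Cdkn2c, Cdkn2a and Cdkn2d sit lower, and only the Cdkn1b values overlap.

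Cdkn1a (ENSMUSG00000023067) encodes p21, the Cip/Kip inhibitor through which p53 arrests the cycle. It lies on the plus strand of chromosome 17, from 29309936 to 29319701 (all positions are those of GRCm39). The KE cultures held 11660, 12056 and 11924 normalized counts of Cdkn1a, and the NT cultures 7668, 8328 and 7593. Every KE culture was above every NT culture, and the KE cultures differed little among themselves. With a mean of 11880 ± 201 in KE against 7863 ± 405 in NT (SD, n = 3 each), Cdkn1a rose 1.51-fold, and its log2FC was 0.60 with an SE of 0.06 (limma, adjusted p = 6.3e-06). Over all 6 cultures, 2.95% of tested genes had a higher mean than Cdkn1a.

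Cdkn1b (ENSMUSG00000003031), on the plus strand of chromosome 6 from 134897364 to 134902476, encodes p27, the other Cip/Kip protein here, which holds CDK2 inactive in resting cells. In KE it stood at 3481, 3452 and 3470 normalized counts, in NT at 3504, 3092 and 3552. The groups overlapped, and the KE values lay between the NT values. The log2FC was 0.04, with a 95% confidence interval from -0.10 to 0.18 (adjusted p = 0.64 from limma), so a change of the size seen for Cdkn1a lies outside the interval. The ratio of Cdkn1a to Cdkn1b within a culture, which does not depend on the scaling between cultures, was 3.35, 3.49 and 3.44 in KE and 2.19, 2.69 and 2.14 in NT. It was 1.47-fold higher in KE, with no overlap and p = 0.1 in a two-sided exact permutation test, the smallest p that 3 cultures against 3 can give.

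A binding site of p53 is made of 2 half-sites with a 4-base core each. A pair of adjacent half-sites with both cores intact and at most 2 mismatches elsewhere, searched from 3000 bases before to 1000 bases after the start of the canonical transcript, was found for 2.43% of 13801 tested protein-coding genes. This search was added after the data were seen. Among the 10 genes the pair was found for Cdkn1a and Gdf15, and not for Mdm2 and Cdkn2b, which were also called higher. The Cdkn1a match, at chr17:29309902-29309921 of GRCm39 on the plus strand, lies upstream of the gene. Its first base is 34 bases before the most upstream annotated start and 2836 bases before the canonical one. The Gdf15 match, at chr8:71084616-71084635 on the minus strand, begins 476 bases after the canonical start and lies in the untranslated part of exon 1 of that transcript. Both are shown 5′ to 3′ along the strand of the gene, with the 4-base cores in capitals. They are matches of letters, and binding was not measured in these cultures.
Cdkn1a: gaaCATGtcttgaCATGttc
Gdf15: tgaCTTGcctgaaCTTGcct

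The 300 bases around the most upstream Cdkn1a start (250 before, 50 after; chr17:29309686-29309985, plus strand) hold the pair of half-sites, which is the longer run of capitals, and a further half-site match, the shorter run. A single half-site was found in 7.38% of windows of the same length at canonical starts of tested genes. The canonical window of Cdkn1a holds no half-site. That of Mdm2 (chr10:117546614-117546913, minus strand) holds a half-site, in capitals, beginning 186 bases before the start. The only other canonical window of the 10 genes with a half-site was that of Trp53, which was not called, where it begins 1 base after the first transcribed base.
Cdkn1a: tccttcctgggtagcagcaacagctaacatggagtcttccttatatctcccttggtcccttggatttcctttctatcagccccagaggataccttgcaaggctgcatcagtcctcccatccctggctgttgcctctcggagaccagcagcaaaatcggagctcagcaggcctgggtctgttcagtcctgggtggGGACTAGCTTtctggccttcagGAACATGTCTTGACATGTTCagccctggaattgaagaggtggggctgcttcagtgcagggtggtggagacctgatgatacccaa
Mdm2: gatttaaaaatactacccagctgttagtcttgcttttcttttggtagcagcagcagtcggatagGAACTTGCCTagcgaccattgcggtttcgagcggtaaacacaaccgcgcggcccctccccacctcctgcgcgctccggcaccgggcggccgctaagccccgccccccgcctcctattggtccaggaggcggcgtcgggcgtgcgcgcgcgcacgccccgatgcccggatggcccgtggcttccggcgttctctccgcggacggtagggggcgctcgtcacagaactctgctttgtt

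Trp53 (ENSMUSG00000059552), on the plus strand of chromosome 11 from 69469669 to 69482701, encodes p53 itself. Trp53 reached 4221, 4678 and 4522 normalized counts in KE, against 4084, 4115 and 4117 in NT. Each KE culture was above each NT culture, but by little: the log2FC was 0.12, with a 95% confidence interval from -0.0016 to 0.25 (limma, adjusted p = 0.091), and the gene was not called. The activity of p53 is set mostly by the stability of the protein, which was not measured here. Mdm2 (ENSMUSG00000020184), on the minus strand of chromosome 10 from 117524780 to 117546730, encodes the ubiquitin ligase that p53 induces against itself. Mdm2 was at 6439, 6522 and 6782 normalized counts in KE, and at 3273, 3308 and 2978 in NT. The groups were wide apart, by several times the spread within either. Mdm2 rose 2.07-fold, from 3186 ± 181 in NT to 6581 ± 179 in KE (SD, n = 3 each), with a log2FC of 1.05 and an SE of 0.06 (limma, adjusted p = 1.4e-07).

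The ratio of Mdm2 to Trp53 within a culture was 1.53, 1.39 and 1.50 in KE and 0.801, 0.804 and 0.723 in NT. Mdm2 thus exceeded Trp53 in normalized count in every KE culture and in no NT culture. The ratio was 1.90-fold higher in KE (p = 0.1, two-sided exact permutation test, the smallest possible). These counts do not allow for transcript length, and per kilobase of canonical transcript the order in KE is turned, with every Trp53 value above every Mdm2 value.

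**Figure D2:**
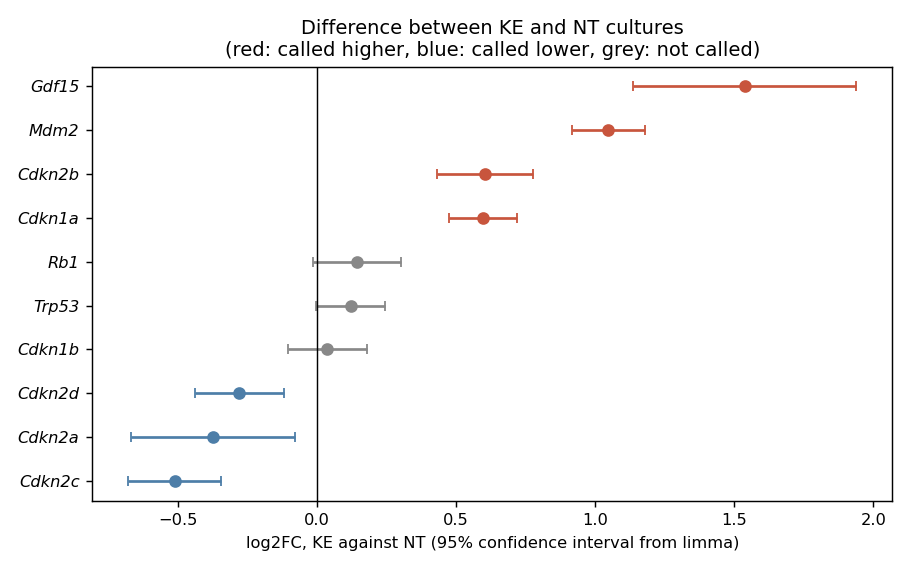
log2FC of KE against NT (x axis) for each of the 10 genes (y axis), with its 95% confidence interval from limma. Gdf15 (1.54) and Mdm2 (1.05) stand furthest to the right, Cdkn2c (-0.51) furthest to the left, and the intervals of Cdkn1b, Trp53 and Rb1 include 0.

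Gdf15 (ENSMUSG00000038508), on the minus strand of chromosome 8 from 71082038 to 71091537, encodes a cytokine of the TGF-beta superfamily that p53 and the integrated stress response can both induce and that senescent cells secrete. Gdf15 was low in every culture, with 171, 225 and 163 normalized counts in KE and 75.3, 56.4 and 58.7 in NT. All KE cultures were above all NT cultures, with KE replicate 2, the least deeply sequenced, the highest. It averaged 186 ± 33.9 in KE and 63.5 ± 10.3 in NT (SD, n = 3 each), and the fold from the log2 fit was 2.90. The log2FC of 1.54 (SE 0.18; limma, adjusted p = 3.9e-05) was the largest among the 10 in either direction. Without KE replicate 2 it was 1.39. Gdf15 was also the least abundant of the 10, and 76.9% of tested genes had a higher mean.

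The INK4 genes did not move together. Cdkn2b (ENSMUSG00000073802) encodes p15, which TGF-beta signaling is known to induce, and lies on the minus strand of chromosome 4 from 89223204 to 89229276. Cdkn2b was counted at 1059, 1118 and 1021 in KE, and at 653, 752 and 699 in NT, both normalized. No NT culture reached the lowest KE culture. Cdkn2b rose 1.52-fold, from 701 ± 49.8 to 1066 ± 49.0 (SD, n = 3 each), much as Cdkn1a did, with a log2FC of 0.60 and an SE of 0.08 (limma, adjusted p = 8.1e-05).

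Cdkn2a (ENSMUSG00000044303) lies beside Cdkn2b on the same strand, from 89192708 to 89212890. It encodes p16, an INK4 protein, and p19ARF, which restrains MDM2. The 2 coding transcripts of Gencode vM39 start at different first exons, and their shared second coding exon follows 126 coding bases in Cdkn2a-201 and 190 in Cdkn2a-202, so that it is read in different frames. Both are summed into the single value of the table. This value was 500, 498 and 351 in KE and 554, 620 and 552 in NT. KE was lower without overlap, but KE replicate 3 stood well below the other KE cultures. The KE mean was 449 ± 85.5, the NT mean 575 ± 38.4 (SD, n = 3 each), and the log2FC -0.37 with an SE of 0.13 (limma, adjusted p = 0.036). This limma call did not hold without KE replicate 3 (log2FC -0.20, adjusted p = 0.114). It was also lost without NT replicate 1 (-0.40, adjusted p = 0.0659) and without NT replicate 2 (-0.32, adjusted p = 0.111). The same held for limma without the variance trend (-0.37, adjusted p = 0.0959) and after quantile normalization (-0.33, adjusted p = 0.0538). Of these, the log2FC was much smaller only without KE replicate 3.

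The ratio of Cdkn2a to Cdkn2b was 0.472, 0.445 and 0.343 in KE and 0.848, 0.823 and 0.790 in NT, so these neighbors shifted against each other in every culture. The ratio in KE was 0.507 of that in NT (p = 0.1, two-sided exact permutation test, the smallest possible). Leaving out any single culture kept the log2 difference between -1.07 and -0.84.

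**Figure D3:**
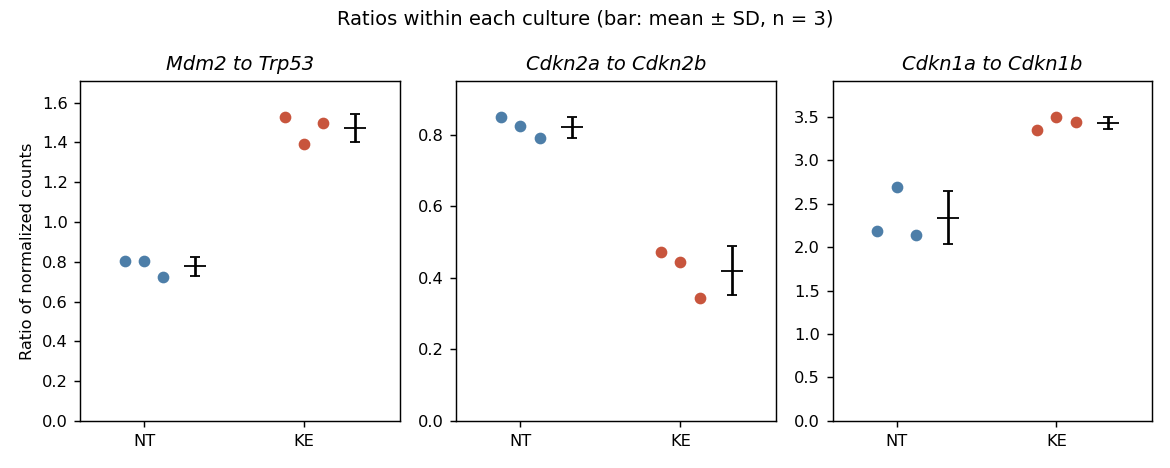
Ratio of normalized counts (y axis, from 0) of Mdm2 to Trp53, Cdkn2a to Cdkn2b and Cdkn1a to Cdkn1b in each NT (blue) and KE (red) culture, with mean and SD. The Mdm2 to Trp53 ratio averaged 1.47 in KE and 0.776 in NT, the Cdkn2a to Cdkn2b ratio 0.420 and 0.821, and no ratio overlapped between the groups.

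Cdkn2c (ENSMUSG00000028551), on the minus strand of chromosome 4 from 109517957 to 109524386, encodes p18. Cdkn2c gave 1566, 1615 and 1393 normalized counts in KE, and 2255, 2010 and 2245 in NT. Every KE culture was below every NT culture, with a log2FC of -0.51 and an SE of 0.08 (limma, adjusted p = 2.1e-04). Cdkn2d (ENSMUSG00000096472), on the minus strand of chromosome 9 from 21199700 to 21202727, encodes p19INK4D. The level of Cdkn2d was 792, 814 and 730 normalized counts in KE against 945, 939 and 945 in NT, again lower in KE without overlap. At -0.28 (SE 0.07; limma, adjusted p = 0.0079), its log2FC was the smallest of the called differences. Relative to NT, Cdkn2c fell by 29.8%, Cdkn2a fell by 22.8% and Cdkn2d fell by 17.5%.

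Letters of other factors were searched on both strands of the 300-base windows at the canonical starts. An E2F match (TTTCCCGC, TTTGGCGC, TTTCGCGC or TTTGCCGC; 3.78% of all windows) was found at Cdkn2d and Rb1. A CHR element (TTTGAA, an element of cell cycle genes; 13.6% of all windows) was found at Cdkn2b, Cdkn2d and Rb1, and a cAMP response element (TGACGTCA; 3.12%) at Cdkn2b. None of the 10 canonical windows held the letters searched for the interferon-stimulated response element (GAAANNGAA, 7.97% of all windows), the gamma-activated site (TTCNNNGAA, 7.46%), AP-1 (TGANTCA, 5.40%) or C/EBP-ATF (TGATGNAA, 2.49%). Beyond the matches already given, windows at other annotated starts, for which no share was computed, added AP-1 letters at Cdkn1a, Mdm2 and Trp53, the gamma-activated site at Trp53, an E2F match at Cdkn2a and p53 half-sites at Cdkn2d and Gdf15. The windows of Cdkn2b (chr4:89229227-89229526, minus strand) and Cdkn2d (chr9:21202678-21202977, minus strand) are shown because these INK4 genes moved in opposite directions. Rb1, which was not called, held E2F and CHR matches as Cdkn2d did, and a link between the letters and the direction of change was not tested. Capitals mark the CHR match and then the cAMP response element in Cdkn2b, and the E2F match and then the CHR match in Cdkn2d.
Cdkn2b: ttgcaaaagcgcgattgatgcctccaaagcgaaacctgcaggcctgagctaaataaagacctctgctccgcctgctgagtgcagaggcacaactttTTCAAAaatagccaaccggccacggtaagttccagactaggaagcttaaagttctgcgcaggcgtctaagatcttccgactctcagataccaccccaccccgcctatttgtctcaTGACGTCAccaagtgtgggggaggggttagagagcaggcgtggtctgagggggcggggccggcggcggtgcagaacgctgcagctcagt
Cdkn2d: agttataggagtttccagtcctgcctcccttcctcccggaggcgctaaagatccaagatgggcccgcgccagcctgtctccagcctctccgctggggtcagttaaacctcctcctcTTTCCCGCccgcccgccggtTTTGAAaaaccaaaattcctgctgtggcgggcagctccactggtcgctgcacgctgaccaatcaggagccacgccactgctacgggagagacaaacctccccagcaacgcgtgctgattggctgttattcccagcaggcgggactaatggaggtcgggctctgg

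Rb1 (ENSMUSG00000022105), on the minus strand of chromosome 14 from 73421113 to 73563507, encodes the retinoblastoma protein, whose function is controlled mainly by phosphorylation. Rb1 stood at 2366, 2289 and 2565 normalized counts in KE, and at 2259, 1992 and 2287 in NT. The groups were only just separate, 2289 being the lowest KE value and 2287 the highest NT value. The log2FC was 0.14, with a 95% confidence interval from -0.01 to 0.30 (adjusted p = 0.12 from limma), and the gene was not called. Leaving out single cultures gave log2FC values from 0.08 to 0.18.

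Levels of different genes were compared as normalized counts per kilobase of the canonical transcript. On this scale Cdkn1a led in both groups, with 6178 ± 105 in KE against 4089 ± 210 in NT (SD, n = 3 each), followed by Trp53 (2418 ± 126 and 2219 ± 10.1) and Mdm2 (2124 ± 57.8 and 1028 ± 58.4). The ranges of these 3 genes did not overlap in either group. Next in KE came Cdkn1b (762 ± 3.14), Cdkn2c (566 ± 43.2), Cdkn2a (527 ± 100), Cdkn2d (502 ± 28.2) and Rb1 (480 ± 28.5), where each of the last 4 overlapped its neighbor in range. In NT, Cdkn2c (805 ± 51.5), Cdkn1b (743 ± 55.6) and Cdkn2a (675 ± 45.0) overlapped in this way, above Cdkn2d (608 ± 2.17) and Rb1 (435 ± 32.5). Cdkn2b (392 ± 18 in KE and 258 ± 18.3 in NT) and Gdf15 (97.3 ± 17.7 and 33.1 ± 5.39) were the lowest in both groups. Cdkn2b, which rose, thus remained the lowest INK4 gene per kilobase in KE. Which transcripts the cultures used was not determined, so this order rests on the canonical lengths.

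The genes around the 10 were described by 9 further lists, each read from the same fit. These lists, too, were chosen with earlier results of these data known, so their counts are descriptions only. The background for every list count is the share of all tested genes called, 25.3% higher and 26% lower. Of 24 p53 target genes other than Cdkn1a, Mdm2 and Gdf15, 17 were higher in KE and 2 lower, against 25.3% and 26% of all tested genes, with a median log2FC of 0.51. The largest rises were those of Gadd45a, a growth arrest and DNA damage gene (log2FC 1.76), Perp, a membrane protein gene (1.34), and Tnfrsf10b, a death receptor gene (0.92). Plk3 (-0.77) and Sesn1 (-0.22) were lower. Gadd45a reached 1494, 1361 and 1374 normalized counts in KE against 389, 494 and 376 in NT, and is known to respond to other stress signals besides p53. Of 16 regulators and relatives of p53, 15 were tested, 2 were higher and 7 lower. The checkpoint kinase genes Chek1 (-1.01) and Chek2 (-0.80) and the p53 kinase gene Hipk2 (-0.45) had the largest falls, and the p53 inhibitor gene Mdm4 was lower (-0.28), unlike Mdm2. The deacetylase gene Sirt1 (0.33) and the ubiquitin ligase gene Rchy1 (0.29) were higher.

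**Figure D4:**
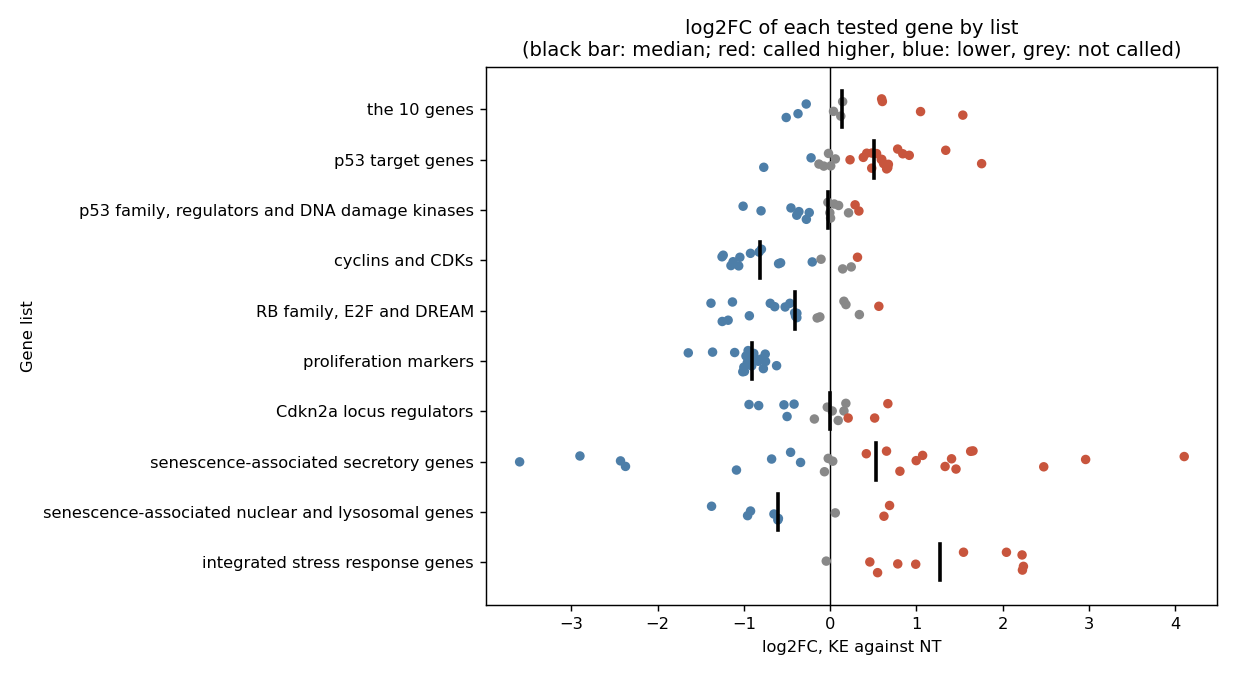
log2FC of KE against NT (x axis) of every tested gene of the 10 lists (y axis), with the median of each list as a black bar and calls in red (higher), blue (lower) or grey (not called). All 19 proliferation markers lie below 0, 17 of 24 p53 target genes are called higher, and the secretory genes spread from -3.60 to 4.10.

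Most genes of the cell cycle lists were lower in KE. All 19 proliferation markers fell, with a median log2FC of -0.91 and no overlap between groups, led by Mki67, which marks cycling cells (-1.64), Cenpf (-1.36) and Top2a (-1.11). The normalized count of Mki67 was 5493 ± 138 in KE against 17175 ± 293 in NT (SD, n = 3 each). Of 16 genes for cyclins, CDKs and their partners, 12 fell and 1 rose, with Ccna2 (-1.25), Ccne2 (-1.24) and Skp2 (-1.15), which targets p27 for destruction, the lowest. Of the genes for the kinases that INK4 proteins bind, Cdk4 was lower (-0.60) and Cdk6 was not called (-0.11). Of the genes for their D-type cyclins, Ccnd1 was lower (-0.21), Ccnd3 higher (0.32) and Ccnd2 not called (0.14). Of 19 genes of the RB family, E2F and the DREAM complex, 13 fell and 1, Lin52 (0.56), rose. E2f7 (-1.38), Mybl2 (-1.25) and E2f8 (-1.18) fell furthest, and E2f1 was also lower (-0.47). The summed level of the microglia markers was 7.94 times as high in NT as in KE over these same cultures, and whether the lower cycling transcripts belonged to astrocytes or to other cells was not tested.

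Genes used as signs of senescence changed in both directions. Of 9 nuclear and lysosomal genes, 6 were lower, led by Lmnb1, the lamin gene whose loss marks senescent nuclei (-1.38), Hmgb2 (-0.96) and Hmgb1 (-0.92). Hmga1 (0.69) and Hmga2 (0.62) were higher, and Glb1, which encodes the lysosomal beta-galactosidase used as a senescence stain, was not called (0.06). Several of these nuclear genes are also expressed with the cell cycle. Of 25 genes of the senescence-associated secretory phenotype, 24 were tested, 13 were higher and 8 lower, with a median log2FC of 0.54. Cxcl10 (4.10), Areg (2.96) and Il6 (2.48) rose the most, although Areg stood at only 19.4 ± 2.76 in KE and 1.64 ± 0.529 in NT (SD, n = 3 each). The NT level of Areg was far below the mean required for testing, which the gene reached only through its KE values. The size of the Areg rise is therefore poorly determined. Tnf (-3.60), Il1a (-2.90) and Plau (-2.43) fell the most. Microglia, whose markers fell in the same cultures, are known to express Tnf and Il1a, and their part in these falls was not tested. Cxcl10 is also an interferon-induced gene.

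Of 15 regulators of the Cdkn2a locus, 14 were tested, 3 were higher and 5 lower, with a median log2FC of -0.01. Of all tested genes 25.3% were higher and 26% lower, so these counts by themselves do not set the list apart. Polycomb proteins silence this locus, and the Polycomb genes Ezh2 (-0.83), Kdm2b (-0.54), Bmi1 (-0.50) and Suz12 (-0.42) were lower while Cbx7 (0.67) was higher. Ring1, Rnf2 and Eed were not called. Ets2 (-0.94), an ERK-responsive activator of p16, fell, and Id1 (0.52), a repressor of p16, rose, as did Ets1 (0.21). Of 10 genes of the integrated stress response and related stress signals, which can induce Gdf15 without p53, 9 were higher and 0 lower. Chac1 (2.24), Ddit3 (2.23), which encodes CHOP, and Ppp1r15a (2.22), which encodes GADD34, rose the most. The rise of Gdf15 thus stood beside rises in both the p53 target list and the stress list, and their part in it was not tested.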

How the data were processed

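Libraries were made from RNA of 3 KE and 3 NT cultures with a stranded mRNA kit. Per the labels and the supplemental methods, the authors used TrimGalore for trimming, STAR for alignment, Salmon for quantification and DESeq2 for normalization. The methods give GRCm39 with Gencode for mouse, whereas the labels name GRCh38, and the table holds mouse gene identifiers. The deposited values are a normalized signal per gene, counts divided by size factors by the authors, and whole reads were not recovered from them: 74.7% to 77.6% of the low values were whole to within 0.1. Depth was thus only approximated, and errors are the spread over cultures. The methods mention batches without naming them, and nothing says that the cultures were prepared separately, so p-values measure the spread between these samples.

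From these values, log2(normalized count + 1) of the 15280 genes with a mean of at least 10 was compared by limma 3.58.1 (R 4.3.3) between the groups, with a variance trend and no covariate, two-sided, with Benjamini-Hochberg adjustment over all of them. With the added 1, changes of low genes come out too small. No other filter was applied and no culture was left out. In simulated data on 15280 genes, 158 of 200 genes changed by 1 on the log2 scale were recovered and 11 unchanged genes were called. The simulation held a far smaller share of changed genes than the 51.3% called here. Its figures check the fit and give no error rate for this comparison. Where a symbol was listed more than once, the row with the highest mean was used. Every one of the 10 genes is named. From each list the 3 largest called rises and falls are named, with Mki67, Ccnd1, Cdk4, Cdk6, Mdm4, E2f1, Lmnb1 and Braf in every case, and Glb1, Ccnd2, Bmi1, Suz12, Ring1, Rnf2 and Eed were added after their values were seen. The members and lists were chosen with earlier results of these data known. Positions, start sites and sequences come from GRCm39 with Gencode vM39, in which 54749 of the 55357 gene identifiers were found. The search for pairs of p53 half-sites was added after the data were seen. Alternatives were pseudocounts of 0.5 and 5, no filter or a mean of at least 50, quantile normalization, upper-quartile scaling (75th percentile), no variance trend, the replicate number as a block, and leaving out each culture.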

Additional observations from a re-analysis of the deposited data

How the results depend on the processing

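Each result was recomputed under every alternative that applied, 483 values in all, of which 466 had the direction and call of the result itself (counts: no more than 1.5 times apart). The 4 genes called higher, Cdkn1a, Mdm2, Cdkn2b and Gdf15, and Cdkn2c and Cdkn2d among those lower, kept their calls under all 14 alternatives. The exceptions were Cdkn2a, with a log2FC of -0.33 (adjusted p = 0.0538) after quantile normalization, -0.37 (adjusted p = 0.0959) without the trend and -0.46 to -0.20 when a culture was left out (adjusted p 0.0211 to 0.114 over its alternatives), and Cdkn1b, which ranged from -0.025 to 0.075 when a culture was left out, being -0.025 without NT replicate 2, and was called under none. The cause was not tested. Counts under 4 moved in some lists. Genes called higher numbered 2 instead of 1 among cyclins and CDKs, and 2 instead of 1 among RB family, E2F and DREAM genes, after quantile normalization and with the replicate block, and 1 to 2 in both lists when a culture was left out. With a culture left out, the p53 targets called lower numbered 1 to 2 and the p53 regulators called higher 1 to 3. With the replicate block, 8046 genes were called against 7844, and no call among the 10 genes changed. Same-numbered cultures hardly deviated together (r of 0.059 to 0.066 across genes, against -0.050 to -0.010 for different numbers), although each culture correlated best with its own number. For the ratios, the exact sign-flip test over 3 pairs cannot give a p below 0.25. Limits set by depth were not compared between genes, and Gdf15 was the least abundant of the 10.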

Other observations

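Over the 6 cultures, the genes whose centered log2 profile was nearest to that of Gdf15, among tested genes with a mean of at least 100, were Cdsn, P2rx6 and Tm4sf1. Their Pearson's r with Gdf15 was 0.986, 0.986 and 0.985, and their log2FC was 1.50, 1.50 and 1.44, against 1.54 for Gdf15. These r values describe 6 cultures in 2 groups and mostly reflect the difference between the groups. Cdsn (corneodesmosin) averaged 286 normalized counts in KE against 101 in NT, and Tm4sf1, a membrane protein gene, 23072 and 8528.

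Some of the 10 genes overlap other genes on the opposite strand. Wrap53, which overlaps Trp53, had means of 380 normalized counts in KE and 372 in NT. Lpar6 and Rcbtb2 overlap Rb1, with means of 501 and 2035 in KE and 796 and 2523 in NT. The kit marks the strand, and whether the quantification used it is not given in the sources used here. Sharing of reads between the strands was not tested.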
